A study of Rattus norvegicus with 40 samples.

Results

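The proteasome subunits and ubiquitin enzymes were taken as all probe sets of the array with exactly 1 gene symbol that begins with Psma, Psmb, Psmc, Psmd, Psme, Uba, Ube2, Ube3 or Usp, with 1 probe set for each gene, the one with the highest mean signal over the 32 arrays of the 19 h groups. The rule found 113 of the 10411 genes on the array (1.09%), of which 38 carry a proteasome prefix and 75 a ubiquitin prefix. The proteasome genes were 7 Psma, 9 Psmb, 6 Psmc, 12 Psmd and 4 Psme genes, and the ubiquitin genes were 11 Uba, 27 Ube2, 3 Ube3 and 34 Usp genes. A prefix is not a function: Psmc3ip and Psme3ip1 are not proteasome subunits, and among the Uba genes Uba1, Uba2, Uba3 and Uba6 encode activating enzymes while Ubac1, Ubac2, Ubald1, Ubap1, Ubap2, Ubap2l and Ubash3b do not. Another 8 symbols with these prefixes, Psmb6 and Psme3 among them, occurred only on probe sets shared between genes and were left out. The mean signal was under the lowest array median (3.52 on the log2 scale) for 2 proteasome and 14 ubiquitin genes.

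Livers of male rats 10 to 12 weeks old were profiled individually on RAE230A arrays from Affymetrix. Rats received by gavage either TCDD (dioxin, a ligand of the aryl hydrocarbon receptor, AHR) at 100 µg/kg or corn oil. The sensitive collective, with the wild-type AHR, consists of LnC (Line-C) and L-E (Long-Evans) rats. The resistant collective, with an AHR that lacks part of its transactivation domain, consists of LnA (Line-A) and H/W (Han/Wistar) rats. Both lines descend from matings of the H/W and L-E strains. Each of these 4 strains/lines has 4 TCDD rats and 4 corn oil rats at 19 h, and L-E and H/W have 4 TCDD rats each at 3 h with no corn oil group at that time. The 4 rats of a group shared a cage, so cage and treatment cannot be told apart, and p-values measure the spread between these rats only. In whole liver, fewer cells of a type and less RNA per cell cannot be told apart. Array medians ran from 3.52 to 3.76, and arrays of the same group correlated at 0.992 to 0.996 over all genes. The labelled tissue had its markers, with 7 of 7 hepatocyte genes on the array at a mean of 13.9 to 14.3 in every group. Of 6 AHR target genes used as a check of treatment, 6 were called in L-E, LnC and LnA and 5 in H/W (limma, adjusted p under 0.01).

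The proteasome is the protease that degrades most short-lived and misfolded proteins of the cell. Its barrel, the 20S core, is built from rings of alpha subunits (Psma genes), which gate the entrance, and beta subunits (Psmb genes), some of which cut the substrate. The 19S cap holds ATPases that unfold the substrate (Psmc genes) and other subunits that bind and strip ubiquitin (Psmd genes), and Psme genes encode activators that can take the place of that cap. Ubiquitin is attached in sequence by activating enzymes (E1, such as Uba1), conjugating enzymes (E2, many of the Ube2 genes) and ligases (E3, among them the Ube3 genes). Most Usp genes encode proteases that remove it. The prefixes Uba, Ube2 and Usp do not show whether a member is active or acts on ubiquitin rather than on a related protein.

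Promoter sequences of 4 subunits named below are shown because AHR binds the core motif GCGTG and because proteasome genes are known targets of the factors that bind antioxidant response elements, searched here as TGACNNNGC. The runs are the 250 bases before the annotated start in RefSeq (build GRCr8), 5′ to 3′ on the strand of the gene, with matches to either motif on either strand in capitals. Psmb5, the chymotrypsin-like catalytic subunit, lies on the minus strand of chr15:32047380-32047629 and has both motifs, GCGTG and then TGACGTCGC.
Psmb5: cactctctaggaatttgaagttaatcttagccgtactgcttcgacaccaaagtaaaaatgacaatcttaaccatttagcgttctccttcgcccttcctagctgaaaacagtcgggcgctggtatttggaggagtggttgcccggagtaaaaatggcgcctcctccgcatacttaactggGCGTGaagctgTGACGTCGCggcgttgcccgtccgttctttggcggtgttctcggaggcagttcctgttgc
Psmb4, a structural beta subunit, on the minus strand of chr2:185134562-185134811, has GCGTG on each strand and no match to the other motif.
Psmb4: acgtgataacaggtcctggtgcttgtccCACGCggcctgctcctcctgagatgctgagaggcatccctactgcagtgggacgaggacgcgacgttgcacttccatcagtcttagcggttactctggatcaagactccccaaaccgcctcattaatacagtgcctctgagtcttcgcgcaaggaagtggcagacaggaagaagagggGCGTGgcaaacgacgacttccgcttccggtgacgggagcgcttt
Psmb7, the trypsin-like catalytic subunit, on the minus strand of chr3:42827471-42827720, has neither motif.
Psmb7: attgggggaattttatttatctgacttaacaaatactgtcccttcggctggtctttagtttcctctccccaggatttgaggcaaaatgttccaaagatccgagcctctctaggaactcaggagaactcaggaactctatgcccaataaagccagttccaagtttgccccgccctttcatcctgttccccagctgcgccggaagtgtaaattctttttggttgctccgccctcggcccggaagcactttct
Psmd2, a scaffold of the 19S cap, on the minus strand of chr11:93763389-93763638, has neither motif.
Psmd2: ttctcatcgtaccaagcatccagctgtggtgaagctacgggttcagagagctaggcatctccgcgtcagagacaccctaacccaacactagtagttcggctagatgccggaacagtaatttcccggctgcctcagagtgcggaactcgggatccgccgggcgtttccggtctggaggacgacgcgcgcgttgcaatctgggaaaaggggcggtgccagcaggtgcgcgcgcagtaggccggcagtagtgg

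Both motifs were counted in windows of 300 bases that include 50 bases after the start. GCGTG was found in 19 of the 36 proteasome genes with a promoter in the table (52.8%) and in 35 of 63 ubiquitin genes (55.6%), beside 46.9% of the 8610 array genes with a promoter and 29.7% of all 33469 promoters. TGACNNNGC was found in 7 of 36 proteasome promoters (19.4%) and 16 of 63 ubiquitin promoters (25.4%), beside 14.6% of the array genes and 12.1% of all promoters. The motifs can overlap by a shared GC, and a match describes letters in a window and not a binding site.

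TCDD was compared with corn oil at 19 h in each strain/line by itself, which asks how the 113 genes differed after exposure under each AHR. Proteasome genes were higher after TCDD by a median log2 difference of 0.32, 0.33, 0.31 and 0.22 in L-E, LnC, LnA and H/W, which is 1.25-fold, 1.25-fold, 1.24-fold and 1.16-fold. The median over all genes on the array was 0.01, 0.00, -0.01 and -0.04. The ubiquitin genes had medians of 0.01, -0.02, -0.01 and 0.01 in the same order. The difference had the same positive sign in all 4 strains/lines for 27 of 38 proteasome genes (71.1%), for 11 of 75 ubiquitin genes (14.7%) and for 14.1% of all genes. Among the 6039 genes with a mean over the lowest array median, that share was 23.1%. Not 1 proteasome gene was lower in all 4 strains/lines, while 9 of 75 ubiquitin genes (12%) were, beside 15.4% of all genes and 19.9% of those over the lowest array median.

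Few single genes passed the threshold of the study, an adjusted p under 0.01 in limma over 10411 genes. In L-E 0 of 113 members were called against 2.06% of all genes, and at an unadjusted p under 0.05 33 members were higher and 1 lower, beside 10.7% and 8.18% of all genes. In LnC 1 was called (Psmb4) against 1.13% of all genes. In LnA there were 6 (Psma2, Psmb1, Psmc5, Psmd4, Psmd11 and Uba1) against 1.09%, and in H/W 1 (Psmd2) against 0.423%. All 8 of these calls were higher after TCDD. At an adjusted p under 0.05 the members called were 15 in LnA, 11 in LnC, 7 in L-E and 4 in H/W, beside 3.21%, 3.63%, 6.49% and 1.48% of all genes. In at least 1 strain/line, 22 of 38 proteasome genes passed 0.05 (57.9%) and 4 of 75 ubiquitin genes did (5.33%), beside 9.61% of all genes and 16.3% of those over the lowest array median.

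The calls at 0.01 depended on the fit and on single arrays. When all 40 arrays shared 1 estimate of the spread, limma called 12, 16, 9 and 5 members in L-E, LnC, LnA and H/W, beside 6.91%, 4.20%, 2.40% and 2.57% of all genes. Leaving out 1 array at a time gave 0 to 3 called members in LnA, 0 to 2 in LnC and in H/W, and 0 to 1 in L-E. In LnA, where same-numbered TCDD and corn oil rats deviated together, a fit with the replicate number as a block called 0 members at 0.01 and 7 at 0.05, beside 0.106% and 2.39% of all genes. The medians moved less, since that of the proteasome genes stayed between 0.16 and 0.28 in H/W, 0.27 and 0.36 in LnA, 0.24 and 0.36 in L-E and 0.29 and 0.39 in LnC over all settings tried. The second TCDD rat of L-E stood above the other 3 for many subunits, and without it the L-E median was 0.24.

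**Figure D1:**
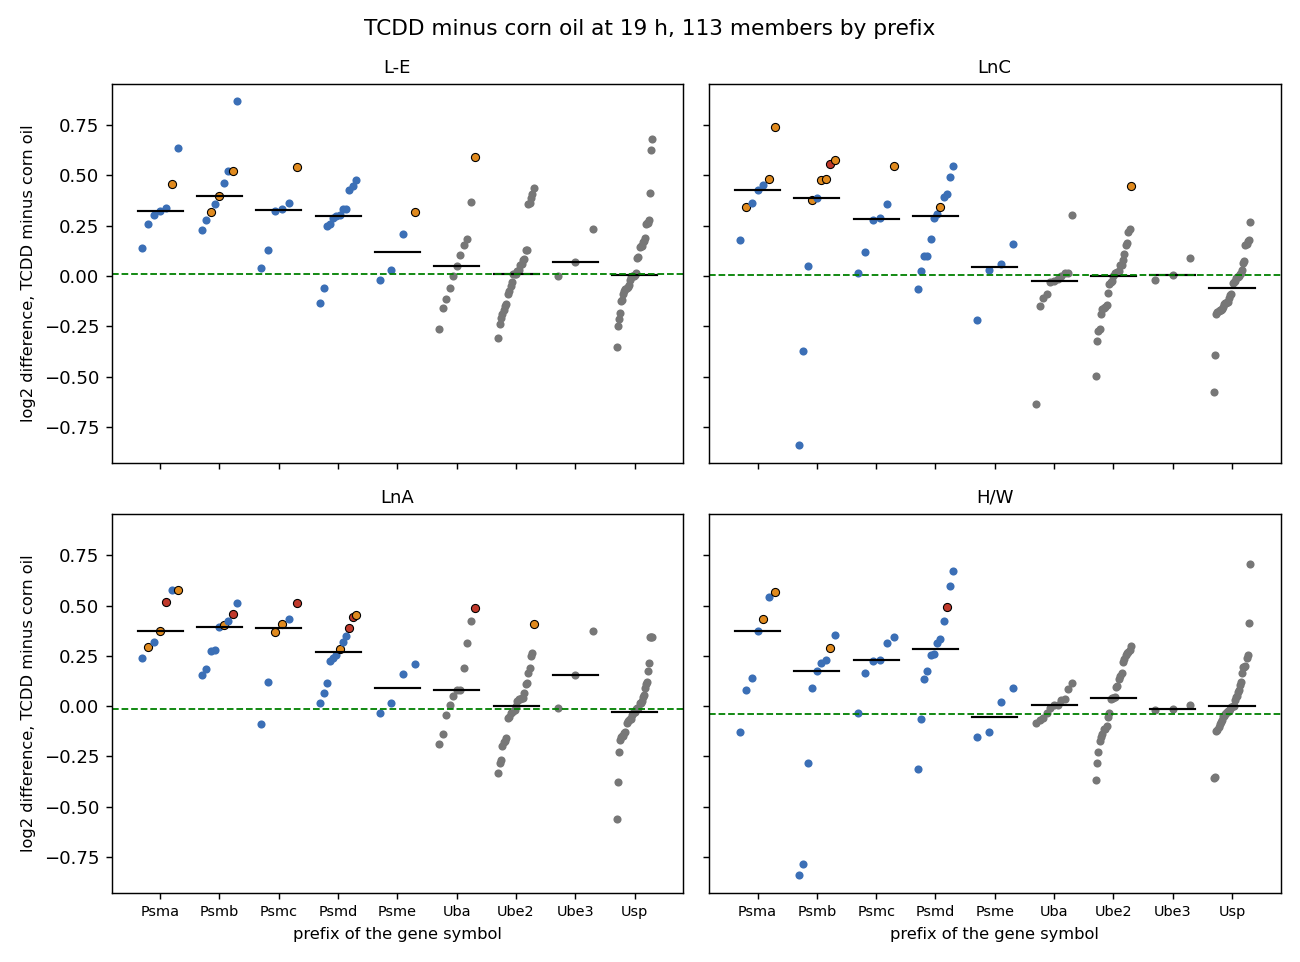
Each point is the log2 difference, TCDD minus corn oil at 19 h, of 1 gene in the strain/line of the panel (4 rats against 4), grouped on the x axis by symbol prefix; red marks an adjusted p under 0.01 (limma), orange under 0.05, blue other proteasome genes, grey other ubiquitin genes, the black bar the prefix median and the green dashed line the median of all genes. The Psma, Psmb, Psmc and Psmd points lie mostly above the line in all 4 panels, and the Usp points lie around it.

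The alpha ring of the 20S core had median differences of 0.32, 0.43, 0.37 and 0.37 in L-E, LnC, LnA and H/W, with 6 of its 7 Psma genes higher in all 4. Psma2 in LnA read 10.51, 10.47, 10.40 and 10.45 after corn oil and 11.03, 11.08, 11.03 and 10.78 after TCDD. Every TCDD rat was above every corn oil rat, a log2 difference of 0.52 (SE 0.07, limma adjusted p = 0.00926, and 0.0420 with the replicate block). The Psma2 groups were likewise apart in the other 3 strains/lines, though its second TCDD rat in L-E (11.21) was well above the other 3 (10.61, 10.67 and 10.66).

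Psma4 had the widest shift of the alpha subunits named here. In LnC it read 8.02, 8.16, 8.31 and 8.21 after corn oil and 8.87, 9.10, 9.05 and 8.64 after TCDD, a log2 difference of 0.74 (limma adjusted p = 0.0157). The difference was 0.64 in L-E, 0.57 in LnA and 0.57 in H/W, where the adjusted p was 0.0485 (limma). Psma6 differed by 0.30, 0.34, 0.37 and 0.08 in the 4 strains/lines, in that order of L-E, LnC, LnA and H/W, passing 0.05 in LnC (limma adjusted p = 0.0325) and LnA (0.0284, and 0.116 with the replicate block). Psma3, chosen after its values were seen as the remaining alpha subunit, was not higher in all 4, and its corn oil and TCDD rats overlapped.

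All 6 beta subunits other than the immune forms were higher in all 4 strains/lines. Psmb4, a structural subunit, read 11.34, 11.27, 11.32 and 11.47 after corn oil and 11.82, 11.91, 12.05 and 11.84 after TCDD in LnC. The lowest TCDD rat was above the highest corn oil rat, and the log2 difference was 0.56 (SE 0.06, limma adjusted p = 0.00551). Its groups were apart in each of the other strains/lines too. The difference was 0.32 in L-E (limma adjusted p = 0.0342), 0.39 in LnA (0.0567, and 0.165 with the replicate block) and 0.29 in H/W (0.0453). The LnC call was kept when the fourth corn oil rat or the third TCDD rat was left out, and the adjusted p was 0.0105 to 0.0267 when any other 1 was (limma).

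Psmb1, another structural subunit, read 11.34, 11.33, 11.11 and 11.26 after corn oil and 11.79, 11.77, 11.66 and 11.66 after TCDD in LnA. The groups were apart with a log2 difference of 0.46 (SE 0.06, limma adjusted p = 0.00907, and 0.0195 with the replicate block). Over the 13 measured core genes without Psmb8, Psmb9 and Psmb10, 12 (92.3%) were higher in all 4 strains/lines, and Psma2, Psma5, Psmb4 and Psmb7 had groups that did not overlap in any of them (Psma5 is named for this count). Psmc2 was the only other member of which that holds, making 5 of 38 proteasome genes and 0 of 75 ubiquitin genes. The share was 0.999% of all genes and 1.72% of those over the lowest array median.

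Counted by strain/line, the groups of 18, 18, 17 and 10 proteasome genes were apart with TCDD higher in L-E, LnC, LnA and H/W, where 7.31%, 5.35%, 4.82% and 3.28% of all genes were. With TCDD lower, the groups were apart for 2 proteasome genes in LnC (Psmb8 and Psme4), 2 in H/W (Psmb8 and Psme3ip1, the latter named for this count) and 0 in L-E and LnA, while 5.95%, 4.55%, 4.08% and 4.79% of all genes were apart in that direction in L-E, LnC, LnA and H/W. The smallest p that an exact permutation test of 4 against 4 rats can give is 0.0286.

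**Figure D2:**
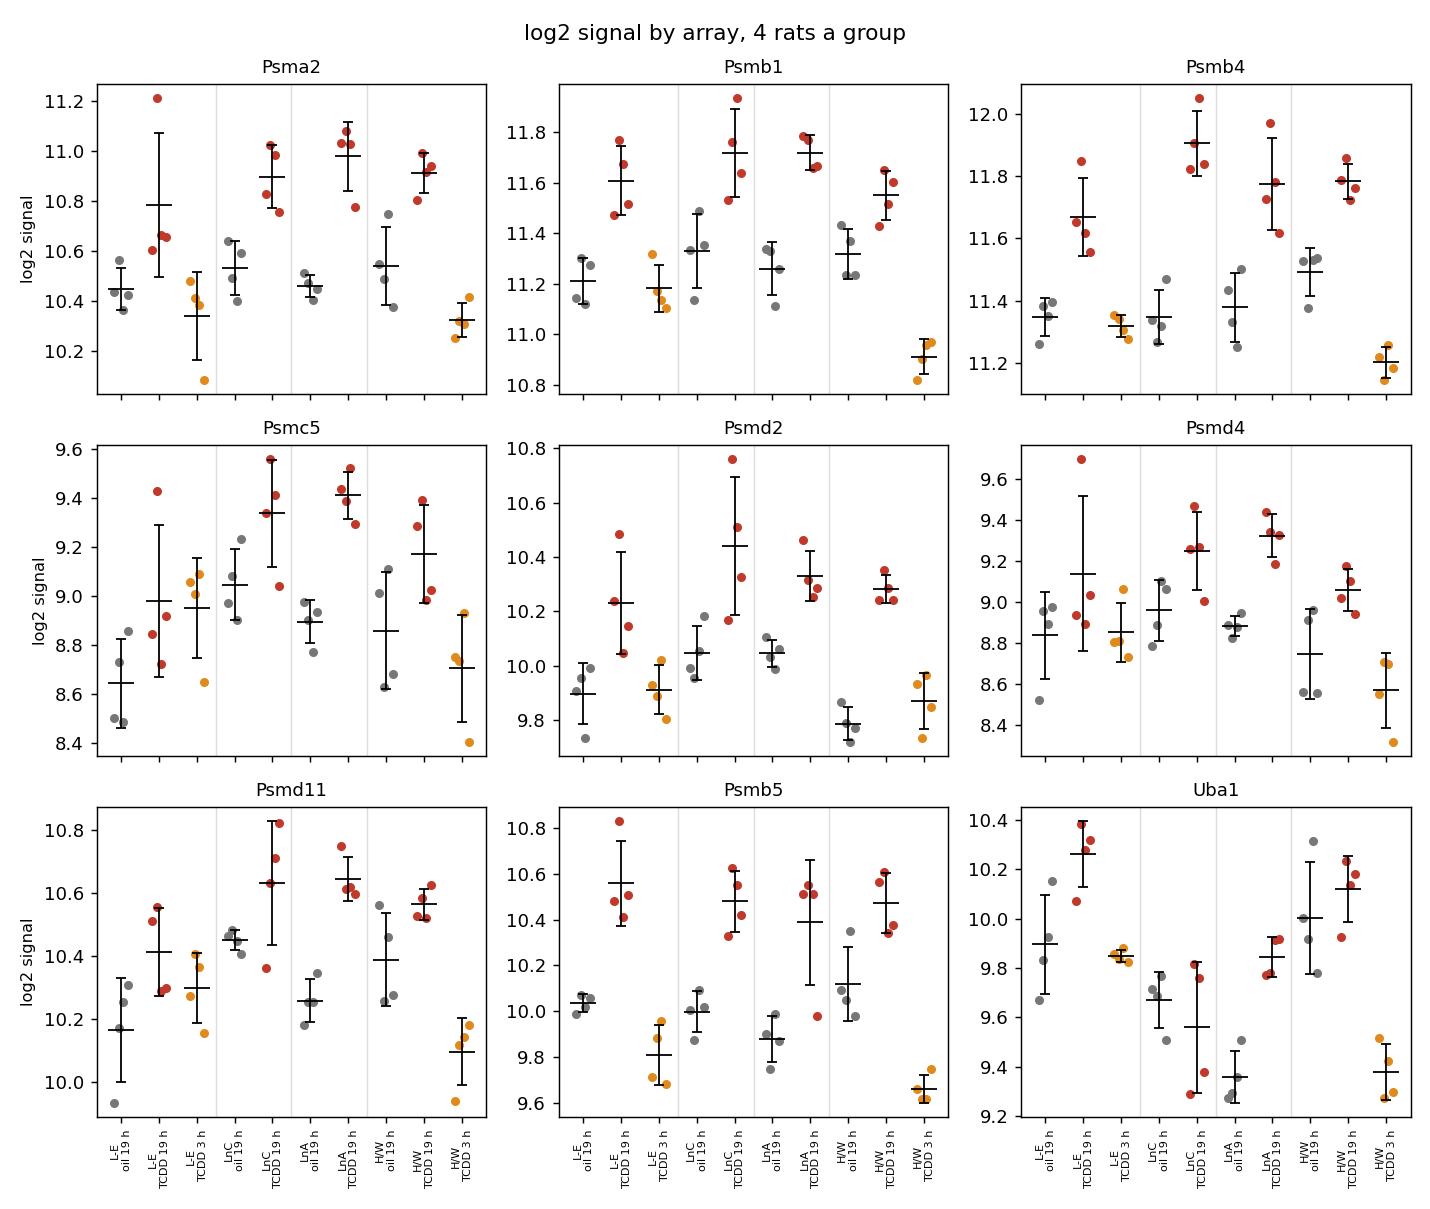
The y axis is the log2 signal of each of 9 named genes and the x axis the 10 groups, with 1 dot per rat (4 a group) and the mean ± SD; grey is corn oil at 19 h, red TCDD at 19 h and orange TCDD at 3 h. Psmb4 shows red dots above grey ones in every strain/line, while Uba1 does so in LnA and overlaps in L-E, LnC and H/W.

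The constitutive catalytic subunits measured were Psmb5 and Psmb7, and Psmb6 was among the shared probe sets left out. Psmb5 in L-E read 9.99, 10.07, 10.02 and 10.06 after corn oil and 10.48, 10.83, 10.41 and 10.51 after TCDD. The groups were apart by 0.52 on the log2 scale (limma adjusted p = 0.0181). The difference was 0.51 in LnA (limma adjusted p = 0.1, and 0.153 with the replicate block), 0.48 in LnC (0.0187) and 0.36 in H/W (0.165). In LnA the fourth TCDD rat read 9.98 while the other 3 read 10.51 to 10.55, so the LnA groups overlapped. Psmb7 differed by 0.36, 0.38, 0.41 and 0.18 in L-E, LnC, LnA and H/W, passed 0.05 in LnC (limma adjusted p = 0.0396) and LnA (0.0207, and 0.0713 with the replicate block), and had groups apart in all 4.

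The immunoproteasome subunits Psmb8, Psmb9 and Psmb10, which replace the constitutive catalytic subunits in immune cells and after interferon, differed in sign between strains/lines. Psmb8 differed by 0.23, -0.84, 0.16 and -0.84 in L-E, LnC, LnA and H/W, with limma adjusted p of 0.615, 0.185, 0.775 and 0.229. In LnC it read 8.30, 8.25, 8.84 and 8.72 after corn oil and 6.94, 7.80, 8.18 and 7.83 after TCDD, and in H/W 8.50, 9.21, 8.49 and 8.51 against 7.90, 7.46, 8.48 and 7.52. Every TCDD rat was below every corn oil rat in LnC and in H/W, but neither difference passed a threshold.

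Psmb9 differed by 0.52, -0.37, 0.18 and -0.78 and Psmb10 by 0.87, 0.05, 0.28 and -0.28 in the same order, with none past 0.05. Psmb10 in L-E read 6.99, 7.59, 7.35 and 6.93 after corn oil and 7.41, 8.24, 8.46 and 8.23 after TCDD, with 1 TCDD rat inside the corn oil range. The activator Psme1, a PA28 subunit that pairs with Psme2, differed by 0.32 in L-E (limma adjusted p = 0.0215) and by 0.06, 0.21 and 0.09 in LnC, LnA and H/W. In L-E it read 11.56, 11.59, 11.57 and 11.48 after corn oil and 11.98, 11.83, 11.94 and 11.74 after TCDD, with no overlap. Psme2 differed by 0.21, 0.16, 0.16 and -0.13 and Psme4, the nuclear activator PA200, by -0.02, -0.22, 0.02 and 0.02, and neither passed 0.05 in any of the 4. Dimmer probe sets of Psme4 differed by -0.03, -0.24, 0.09 and 0.36 and by 0.02, -0.09, -0.02 and 0.03 in the same order.

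Markers of macrophages and other immune cells were on the array for 9 of 11 listed genes, 0 of them under the lowest array median. Their mean level per rat ran from 7.91 to 8.24 after corn oil and 7.71 to 8.07 after TCDD in LnC, and from 7.70 to 7.95 and 7.44 to 7.79 in H/W. In L-E it ran from 7.90 to 8.44 and 8.01 to 8.63, and in LnA from 7.31 to 7.37 and 7.25 to 7.38. The medians of the 9 marker differences were 0.23, -0.12, 0.03 and -0.14 in L-E, LnC, LnA and H/W, with 8, 1, 5 and 1 of the 9 higher after TCDD. The signs of these medians are those of Psmb8 and Psmb9, but not of Psmb10 in LnC. The part of the markers in the immunoproteasome values was not tested. Of the 9, only Cd14 in LnC was called (-0.93, limma adjusted p = 0.00706). A list of 16 interferon and antigen presentation genes on the array had medians of 0.10, -0.03, 0.00 and -0.05 in that order. Of these 16 genes 6 were under the lowest array median, which limits what such medians can show.

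**Figure D3:**
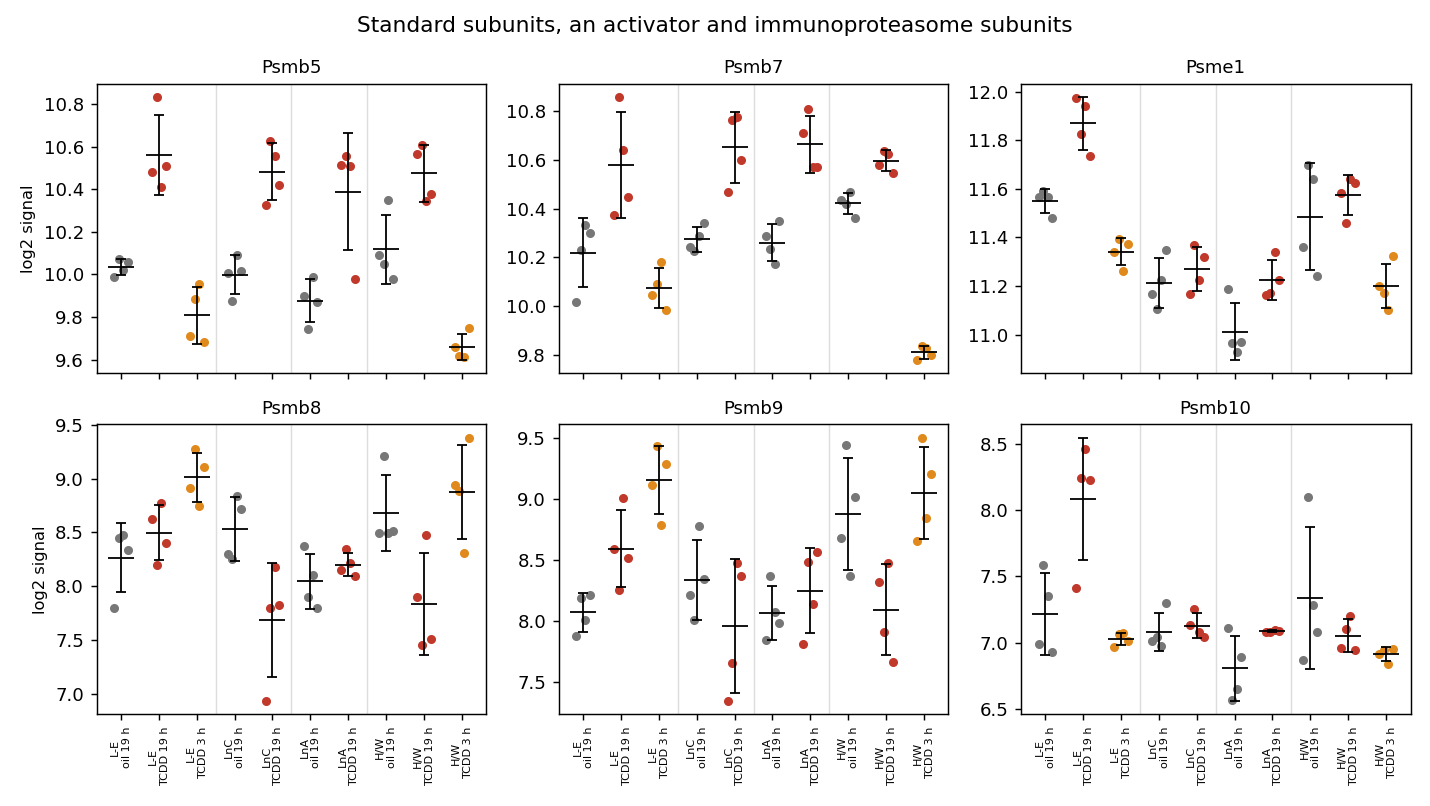
The y axis is the log2 signal of the constitutive catalytic subunits Psmb5 and Psmb7, the activator Psme1 and the immunoproteasome subunits Psmb8, Psmb9 and Psmb10, with 1 dot per rat, the mean ± SD and the 10 groups on the x axis (grey corn oil 19 h, red TCDD 19 h, orange TCDD 3 h). Psmb7 is higher after TCDD in all 4 strains/lines, while Psmb8 is lower in LnC and H/W and overlaps in L-E and LnA.

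The Psmc genes, ATPases of the 19S cap apart from Psmc3ip, had median differences of 0.33, 0.28, 0.39 and 0.23 in L-E, LnC, LnA and H/W. These medians include Psmc3ip. Of the 6 Psmc genes 5 were higher in all 4, the exception being Psmc3ip. Psmc5 in LnA read 8.97, 8.90, 8.77 and 8.93 after corn oil and 9.44, 9.39, 9.52 and 9.29 after TCDD. The groups were apart by 0.51 (SE 0.06, limma adjusted p = 0.00758, and 0.0546 with the replicate block), and in L-E, LnC and H/W the difference was 0.34, 0.29 and 0.31 with wider spread. Psmc1 differed by 0.37, 0.55, 0.43 and 0.35 (limma adjusted p = 0.0143 in LnC), and Psmc2 by 0.32, 0.28, 0.37 and 0.23 (limma adjusted p = 0.0226 in LnA, and 0.0654 with the replicate block).

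The Psmd genes, which hold other 19S subunits and also assembly chaperones such as Psmd5, had medians of 0.30, 0.30, 0.27 and 0.28. Of the 12 Psmd genes 9 were higher in all 4, the exceptions being Psmd1, Psmd9 and Psmd10. Psmd9 and Psmd10 are named for this count, and the prefix does not make them subunits of the finished cap. Psmd2 in H/W read 9.87, 9.79, 9.72 and 9.77 after corn oil and 10.24, 10.35, 10.29 and 10.24 after TCDD. The groups were apart by 0.49 (SE 0.05, limma adjusted p = 0.00352), and the difference was 0.33 in L-E, 0.39 in LnC and 0.28 in LnA (0.0324 in LnA, and 0.0432 with the replicate block). H/W arrays of both treatments were scanned on 3 days, and with the day as a block the H/W adjusted p was 0.0259 (limma). On the 1 day with 2 rats of each treatment the difference was 0.56 (limma adjusted p = 0.376). The call was kept when the first or the third corn oil rat was left out, and the adjusted p was 0.0129 to 0.0175 when any other 1 was (limma).

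Psmd4, a ubiquitin receptor of the cap, read 8.89, 8.83, 8.88 and 8.95 after corn oil and 9.44, 9.34, 9.19 and 9.33 after TCDD in LnA, a log2 difference of 0.44 (limma adjusted p = 0.00852, and 0.0431 with the replicate block). Psmd11, a scaffold subunit, read 10.18, 10.25, 10.26 and 10.35 against 10.75, 10.61, 10.62 and 10.60, a difference of 0.39 (limma adjusted p = 0.00852, and 0.0650 with the replicate block). Neither gene had overlapping groups in LnA. A dimmer probe set of Psmd11 differed by only 0.10 in LnA, and by -0.05, 0.09 and 0.19 in L-E, LnC and H/W. The one used differed by 0.25, 0.18 and 0.18 there, so the 2 probe sets disagree in size in LnA and in sign in L-E. Psmd3 differed by 0.48, 0.31, 0.45 and 0.42 in L-E, LnC, LnA and H/W (limma adjusted p = 0.0374 in LnA, and 0.111 with the replicate block). Psmd5, a chaperone of cap assembly, differed by 0.45, 0.55, 0.25 and 0.60, and Psmd13 by 0.43, 0.49, 0.24 and 0.67, with none past 0.05. Psmd1 was 0.33, -0.07, 0.12 and 0.33.

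Among the ubiquitin genes, Uba1, the main activating enzyme, was the 1 called at 0.01. In LnA it read 9.27, 9.29, 9.36 and 9.51 after corn oil and 9.77, 9.78, 9.91 and 9.92 after TCDD. The groups were apart by 0.49 (SE 0.06, limma adjusted p = 0.00907, and 0.0173 with the replicate block). The difference was 0.37 in L-E, -0.11 in LnC and 0.12 in H/W, and the groups overlapped in these 3. Uba6, the other activating enzyme for ubiquitin, differed by -0.26, -0.64, 0.42 and -0.06, with overlapping groups.

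The Ube2 genes, many of them conjugating enzymes, had median differences of 0.01, 0.00, 0.00 and 0.04 in L-E, LnC, LnA and H/W. Of these 27 genes 8 were higher in all 4. Ube2l3, which works with several ligases, differed by 0.36, 0.45, 0.26 and 0.28 in L-E, LnC, LnA and H/W. In LnC it read 9.62, 9.45, 9.54 and 9.63 after corn oil and 9.96, 10.17, 10.09 and 9.80 after TCDD, which did not overlap (limma adjusted p = 0.0365). A dimmer probe set of Ube2l3 differed by only 0.16, 0.16, 0.03 and 0.25 in L-E, LnC, LnA and H/W. Ube2k differed by 0.41 in LnA (limma adjusted p = 0.015, and 0.0786 with the replicate block) and by 0.08, 0.02 and 0.14 in L-E, LnC and H/W.

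None of the 3 Ube3 ligases or 34 genes with the Usp prefix passed 0.05 in any strain/line. Ube3b differed by 0.23, 0.09, 0.15 and -0.02 and Ube3c by 0.07, -0.02, 0.37 and 0.01, of which the LnA value did pass with the replicate block (limma adjusted p = 0.0365). Usp medians were 0.00, -0.06, -0.03 and -0.00. Usp3, a histone deubiquitinase, was lower in all 4 by -0.35, -0.58, -0.56 and -0.35, with overlapping groups in each. In LnA it read 6.75, 6.37, 6.91 and 5.97 after corn oil and 5.95, 4.97, 6.91 and 5.93 after TCDD. Usp7 differed by -0.12, -0.39, -0.07 and -0.00, and Usp33 by -0.25, -0.17, -0.23 and 0.25.

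Averaged over the 13 core genes, rats of H/W had a log2 level of 9.90 to 10.11 after corn oil and 10.10 to 10.33 after TCDD, a small overlap. The L-E levels were 9.73 to 9.93 and 10.09 to 10.48, the LnC levels 9.79 to 9.93 and 10.22 to 10.40, and the LnA levels 9.83 to 9.92 and 10.12 to 10.38. In L-E, LnC and LnA every TCDD rat was above every corn oil rat of its strain/line.

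**Figure D4:**
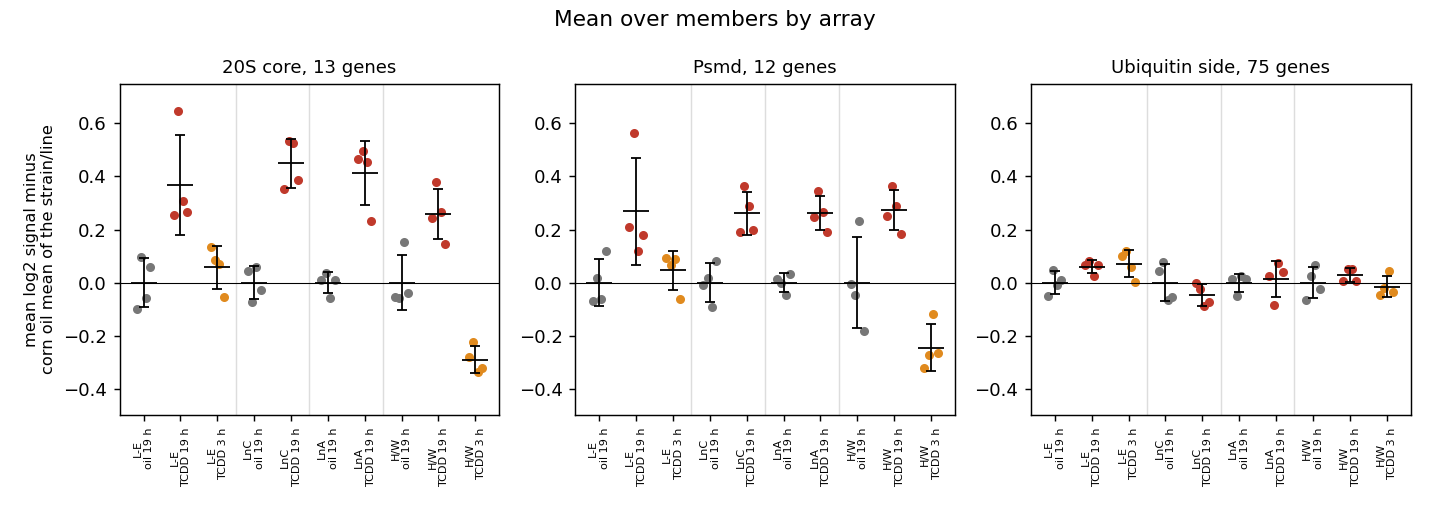
Each dot is the mean log2 signal of 1 rat over 13 genes of the 20S core, 12 Psmd genes or 75 ubiquitin genes, minus the corn oil mean of its strain/line, with the groups on the x axis (grey corn oil 19 h, red TCDD 19 h, orange TCDD 3 h). For the core the red dots stand above the grey ones in L-E, LnC and LnA, 1 L-E rat stands highest at 0.648, and the orange dots of H/W lie below its grey ones.

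A comparison of the mean of the 4 TCDD effects, chosen after the values were seen, used all 32 arrays at 19 h and called 29 members, 28 higher and 1 lower, beside 13.9% of all genes. The 28 were 25 proteasome genes and Ube2l3, Ube2f and Uba1, and the 1 lower was Ube2a; Ube2f and Ube2a are named because few ubiquitin genes were called. By prefix 6 Psma, 6 Psmb, 4 Psmc, 8 Psmd and 1 Psme genes rose, including 12 of the 13 core genes. Mean log2 differences were 0.63 for Psma4 (95% interval 0.48 to 0.78), 0.47 for Psmb5 (0.36 to 0.58), 0.39 for Psmb4 (0.32 to 0.46), 0.38 for Psmd2 and 0.42 for Psmc1. Limma adjusted p was 3.17e-09 for Psmb4, 2.02e-07 for Psmb5 and 3.89e-07 for Psma4. The mean difference was 0.34 for Ube2l3 (limma adjusted p = 4.79e-06), 0.21 for Uba1 (0.00823), 0.28 for Ube2f (0.00116) and -0.23 for Ube2a (0.000181). Leaving out any 1 array gave 28 to 31 called members, but the adjusted p of Uba1 was above 0.01 in many of these fits and 0.0160 without the third TCDD rat of LnC (limma). Each mean reuses the arrays of the 4 single comparisons.

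Whether the TCDD effect differed between the sensitive and the resistant collective was tested as an interaction over the 32 arrays. It called 0 of 113 members (limma), beside 0.0961% of all genes, and the lowest adjusted p of a member was 0.527. At an unadjusted p under 0.05 there were 5 of 113 members, beside 7.93% of all genes. For Psmb10 the sensitive minus resistant difference of effects was 0.46 (95% interval 0.04 to 0.88). For Psmb4 it was 0.10 (-0.05 to 0.24), for Psmb5 0.07 (-0.15 to 0.29) and for Psma2 -0.09 (-0.30 to 0.11). None of these 3 intervals reached the mean TCDD difference of its gene (0.39, 0.47 and 0.40). That of Psmb10 did (mean 0.23), as did those of Psma3 (-0.43 to 0.64, mean 0.11) and Psmd1 (-0.47 to 0.29, mean 0.18). The interval of Psmb10 excluded 0, but its adjusted p was 0.581 (limma). Those of Psma3 and Psmd1 held both 0 and a difference as large as the mean, so they cannot tell equal effects from unequal ones. The intervals of Psmb4, Psmb5 and Psma2 also held 0, which does not show that the effects were equal. The median of the interaction over proteasome genes was 0.06 beside 0.04 over all genes.

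Corn oil rats showed how the strains/lines differed without TCDD. L-E minus H/W called 2 members beside 1.62% of all genes. Ube2b, a conjugating enzyme of DNA damage tolerance, was higher in L-E at 9.69, 9.85, 9.51 and 9.26 than in H/W at 9.11, 9.11, 9.04 and 9.24, a difference of 0.45 (limma adjusted p = 0.00267). Ube2e2 was lower at 2.35, 2.33, 2.32 and 1.94 against 2.40, 2.99, 2.74 and 3.12 (limma adjusted p = 0.00302), with all 8 values under the lowest array median. The count was 1 without replicate 1, 2 or 4 of L-E or replicate 2 or 4 of H/W, and 3 without replicate 3 of H/W. LnC minus LnA called 0 members (limma) beside 0.615% of all genes, with 7 higher and 3 lower at an unadjusted p under 0.05, beside 9.70% of all genes, and at an adjusted 0.05 Psme4 was higher by 0.32 (adjusted p = 0.0193) and Psmd5 lower by -0.59 (0.0347) in LnC. The median over proteasome genes in L-E minus H/W was -0.14, beside -0.05 over all genes.

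At 3 h there were TCDD rats only, so L-E and H/W were compared with each other. The comparison called 2 members beside 2.18% of all genes, and leaving out 1 array at a time gave 0 to 1. Uba1 was higher in L-E at 9.86, 9.84, 9.88 and 9.83 than in H/W at 9.52, 9.27, 9.42 and 9.30 (log2 difference 0.47, limma adjusted p = 0.00497). Psmd3 read 7.81, 7.82, 7.88 and 7.68 in L-E and 7.14, 7.09, 7.35 and 7.32 in H/W (0.57, limma adjusted p = 0.0061). Both genes had groups apart by more than their spread. Of the 38 proteasome genes 34 were higher in L-E, as were 36.2% of all genes, with a median of 0.18 beside -0.04 over all genes. The immune markers were also higher in L-E, with mean levels per rat of 8.40 to 8.95 against 7.62 to 8.02, and their part in these values was not tested.

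TCDD rats at 19 h were also set against those at 3 h. The scan day of the 3 h arrays was not shared with any other group, so time and scan day cannot be told apart, and the 19 h TCDD arrays are the ones used above. In H/W 23 members were called, all higher at 19 h, beside 5.15% of all genes, and they were 6 Psma, 5 Psmb, 6 Psmd and 2 Psme genes with 4 ubiquitin genes, Uba1 and Usp7 among them. The proteasome median was 0.45 beside -0.03 over all genes. Psmb7 in H/W read 9.78, 9.84, 9.83 and 9.80 at 3 h and 10.58, 10.64, 10.63 and 10.55 at 19 h (log2 difference 0.79, limma adjusted p = 6.11e-05).

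The H/W 3 h values of Psmb7 were also below those of its corn oil rats at 19 h (10.36 to 10.47). The same was seen over the 13 core genes, at 9.62 to 9.73 after TCDD at 3 h and 9.90 to 10.11 after corn oil at 19 h. In L-E the core levels at 3 h, 9.78 to 9.97, overlapped those of corn oil at 19 h, 9.73 to 9.93.

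In L-E 6 members were called between 3 h and 19 h, beside 4.01% of all genes. Psme1 (0.53), Usp7 (0.95), Psmb5 (0.75) and Uba1 (0.41) were higher at 19 h, and Uba6 (-1.86) and Ube2b (-0.35) lower. Leaving out 1 array at a time gave 1 called member without 3 h replicate 1, 2 without 3 h replicate 2 or 19 h replicate 4, 3 without 3 h replicate 3 or 4 or 19 h replicate 3, and 6 or 7 otherwise. Usp7 read 7.14, 7.10, 6.91 and 6.86 at 3 h and 7.64, 8.27, 7.99 and 7.92 at 19 h in L-E. The LnA and LnC arrays at 19 h, scanned together on another day, read 6.32 to 7.18 over both treatments. Uba6 read 5.65 to 6.08 at 3 h and 3.76 to 4.29 at 19 h in L-E, and 4.14 to 6.32 in LnA and LnC at 19 h.

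Other genes of the ubiquitin and proteasome pathway came from a list of 72 with 56 on the array. They gave 3 called higher and 1 lower in L-E and in LnA, 3 and 0 in LnC, and 2 and 0 in H/W. Of all genes 2.06%, 1.13%, 1.09% and 0.423% were called in L-E, LnC, LnA and H/W. Ube4b, a chain-elongating ubiquitin ligase, was higher by 1.97, 1.81, 1.77 and 1.51 in L-E, LnC, LnA and H/W, with limma adjusted p of 6.43e-05, 0.000846, 0.000224 and 0.00503. Fbxo31, an F-box substrate receptor, was higher by 2.37, 2.27, 1.89 and 1.84 and called in all 4 (limma adjusted p = 7.14e-05 in LnA). Nfe2l2, which encodes the NRF2 factor, was higher by 2.17, 1.71, 1.38 and 1.46 and missed 0.01 in H/W (limma adjusted p = 0.0163). Nfe2l1, a factor known for proteasome gene control, differed by 0.27, 0.02, 0.00 and -0.01. Pomp, a chaperone of core assembly, differed by 0.40, 0.42, 0.20 and 0.10 (limma adjusted p = 0.0111 and 0.0189 in L-E and LnC). Ddi2, a protease that activates the Nfe2l1 product, was called lower in LnA, by -0.92 (limma adjusted p = 0.00901). Its group means after corn oil and TCDD were 8.39 and 7.35 in L-E, 7.89 and 7.34 in LnC, and 7.92 and 7.91 in H/W. Cul4a, a ligase scaffold, was called lower in L-E, by -0.57 (limma adjusted p = 0.00951). Its means were 8.68 and 8.53 in LnC, 8.78 and 8.58 in LnA, and 8.38 and 8.42 in H/W. The LnA values of this list are without the replicate block, with which 0.106% of all genes were called at 0.01.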

How the data were processed

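The table deposited by the authors holds 1 log2 value per probe set and array. According to notes of the submitters on processing, R 2.3.1 was run with affy 1.10.0 and GCRMA 2.4.1. The study's methods describe RMA with another probe map, which would need the probe intensities and was not done here. The table has 15923 probe sets, 57 of them controls that were dropped. Exactly 1 symbol was given for 12783, several for 312 and none for 2771, and keeping the brightest probe set per symbol gave 10411 genes. No gene was filtered. The members and the other lists were chosen with earlier results of these data known. The genes named were every member called in a TCDD comparison at 19 h or in the interaction, the brightest member and the one with the largest mean difference of each prefix, the catalytic and activator subunits, and up to 5 called members without overlap in each other comparison. Other genes are marked where they are named.

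Each TCDD comparison was fitted in limma 3.58.1 (R 4.3.3) on the 8 arrays of a strain/line. The study's methods state within-strain contrasts but not which arrays shared a fit. Fits used Benjamini-Hochberg adjustment over 10411 genes and a threshold of 0.01. The interaction, the mean over 4 and the corn oil comparisons used 32 arrays. No 2 arrays were identical, and 0 columns were unused. Replicate numbers were checked for pairing by the correlation of deviations over 2245 genes. Every same-numbered pair was over 0.1 only in LnA (0.119 to 0.164), and blocked values stand beside the LnA results. The scripts were tested on simulated data. Array number, 4 a group, limits the precision.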

Additional observations from a re-analysis of the deposited data

Results flagged for a closer look

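Each of the 34 named genes was checked in its 10 groups of 4 rats (340 sets of values) for a rat standing apart from the other 3 by Dixon's test at the 95% level. Of these sets 23 were flagged (6.76%), and chance flags about 1 in 20. In L-E after TCDD at 19 h the second rat was highest for Psma2 (11.21, next 10.67) and Psma6 (11.94, next 11.26), and the first for Usp3 (6.12, next 5.56). In LnA after TCDD Psmb5 had its lowest value in the fourth rat (9.98, next 10.51), Psmd11 its highest in the first (10.75, next 10.62) and Ube3b its highest in the fourth (3.81, next 3.37). In LnC after TCDD the second rat was highest for Psmd3 (8.28, next 7.90) and Ube2k (10.44, next 10.11). In H/W after TCDD Psmc1 was highest in the second rat (10.43, next 10.09), Ube3b highest in the third (3.96, next 3.39) and Uba6 lowest in the third (3.57, next 4.14).

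Among corn oil rats, in H/W Psmb4 was lowest in the second (11.38, next 11.53), Psmb8 highest in the second (9.21, next 8.51) and Usp7 lowest in the fourth (6.92, next 8.07). In L-E Ube2k was lowest in the third (9.35, next 9.65) and Ube2e2 lowest in the fourth (1.94, next 2.32). In LnA Psme1 was highest in the first (11.19, next 10.97) and Usp7 highest in the third (7.05, next 6.90). In LnC Psmd1 was highest in the second (8.39, next 8.16), Psmd3 highest in the fourth (7.97, next 7.59), Ube3b highest in the first (3.74, next 3.43) and Ube2e2 lowest in the first (2.34, next 2.36). At 3 h after TCDD in H/W, Ube2e2 was highest in the first rat (2.66, next 2.39). The Ube2e2 values lie under the lowest array median, and Psma2 and Psma6 share the L-E rat that also stood highest over the 20S core.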

How the results depend on the processing

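Alternatives changed how many members passed 0.01 far more than the size of the differences, and under none of them did a called value change its sign. Replicate block: LnC 0 and H/W 0 called where 1 was, LnA 0 where 6 were, L-E minus H/W at 3 h 0 of 2, 19 h minus 3 h 1 of 6 in L-E and 7 of 23 in H/W. No label states that same-numbered rats shared more than the number, in LnA or in any other strain/line. A single fit over 40 arrays called 12 in L-E, 16 in LnC and 5 in H/W, beside 6.91%, 4.20% and 2.57% of all genes. It called 1 in corn oil L-E minus H/W, 1 in LnC minus LnA and 23 in L-E between the times. Quantile normalization called 2 in LnC, 0 in LnA, 0 in H/W and 0 at 3 h. Centring arrays on their median called 0 in LnC, 2 in LnA and 1 in corn oil L-E minus H/W. Limma trend called 0 in LnA and 0 in H/W. Array weights called 6 in LnC, 2 in H/W and 2 in LnC minus LnA. Leaving out the lowest 40% of genes called 3 in LnC and 1 in corn oil L-E minus H/W. Every probe set tested gave 1 in LnC minus LnA. In H/W the scan day as a block gave 0, and scan day 2 alone, chosen after seeing the data, gave 0. Most of these counts stand without the share of all genes called under the same setting, so they are no result about the members alone. The cause of these changes was not tested.

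Leaving out 1 array at a time gave 0 to 3 members in LnA, 0 to 2 in LnC and in H/W, 0 to 1 in L-E, 1 to 3 in corn oil L-E minus H/W, 0 to 1 at 3 h and 1 to 7 in L-E between the times. The median of the ubiquitin genes stayed near 0: 0.0424 and -0.0139 in L-E (lowest 40% out, arrays centred), 0.0176 in LnA (array weights), and 0.0363, 0.0151, 0.0696 and -0.0202 in H/W (lowest 40% out, quantile, centred, scan day 2 alone). Without 1 array it was -0.0149 to 0.0128 in H/W, -0.0169 to 0.0163 in LnA and -0.0375 to 0.00642 in LnC. Signals under the lowest array median limit what can be said of 16 members.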
